A study of Homo sapiens with 32 samples.

Results

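Caco-2 cells carrying an empty vector (e.v.) were compared with wild-type (WT) Caco-2 cells in the HoxBan system, over monoculture and coculture together. The comparison rests on 12 of the 32 libraries of the series, namely 6 e.v. libraries (3 in monoculture, 3 in coculture) and 6 WT libraries (3 in monoculture, 3 in coculture in standard medium), which were taken by their genotype and treatment labels. The HoxBan system places epithelial cells on a coverslip upside down on agar, so that the cells receive oxygen from above and face an anaerobic layer, which is sterile in monoculture and holds Faecalibacterium prausnitzii, a butyrate-producing gut bacterium, in coculture. Caco-2 is an established line from a human colon adenocarcinoma that takes on enterocyte traits in culture. The e.v. cells had received an inducible Cas9 by lentivirus under neomycin selection and then a guide vector without a guide under puromycin selection, and they serve the study as the control of its Caco-2-HIF1A-null line. WT cells carry neither construct. A further 3 e.v. and 4 WT libraries from conventional 2D culture, none of which enters the HoxBan comparison, gave the same contrast a second time. All e.v. libraries come from 1 line, and whether that line is a clone is not stated in the sources used here. The vector, Cas9, the selections and the line's own history therefore cannot be told apart. Separate cultures behind the replicate libraries are not stated, and a p therefore covers the spread among the sequenced libraries, which may be technical.

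A vector control is meant to carry everything an edited line carries except the edit, and a line that has been transduced, selected and grown from few cells can also differ from its parent in ways that have nothing to do with the insert. Among the pathways known to answer foreign nucleic acid is the interferon response. Sensors such as RIG-I and MDA5 detect RNA in the cytosol, secreted interferon signals through its receptors to transcription factors, and these bind a short element in the promoters of interferon-stimulated genes, whose products (MX, OAS and IFIT proteins among them) restrict viruses. Cultured cancer lines also carry chromosome sets that vary between sublines, and the number of copies of a chromosome is known to move the expression of many of its genes together.

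Libraries held 4472532 to 4929332 counts in e.v. cells and 4562796 to 5469124 in WT cells, from 3′ ends of polyadenylated RNA. Levels are given as CPM, counts per 1e6 of the library size after TMM scaling, so a level compares 1 gene between libraries. Genes of the mitochondrial genome took 8.52 to 23.3% of the counts in e.v. libraries (mean 15.1%) and 6.36 to 20.4% in WT libraries (mean 13.3%). This share did not differ beyond the spread between libraries (difference 1.81 percentage points, two-sided exact permutation test within culture, p = 0.61, smallest possible 0.005). Epithelial markers were detected in both lines, which does not by itself identify the cells as Caco-2. All 10 epithelial markers passed the filter on low counts and none passed the test between the lines, with a summed level of 4120 to 6771 CPM in e.v. libraries and 4829 to 6918 CPM in WT libraries. Of 12 immune markers 4 were detected well enough to be tested, with 3 at 0 counts, and their summed level was 29.5 to 50.6 CPM in e.v. and 14.1 to 21.2 CPM in WT libraries. Only LYZ among these 4 differed. Of 14 markers of goblet, Paneth, enteroendocrine and tuft cells 2 were tested, and PLA2G2A differed (summed level 113 to 244 CPM in e.v., 46.8 to 104 CPM in WT). Of 12 markers of fibroblasts and endothelium 5 were tested, and COL3A1 and PDGFRA differed (summed level 61.8 to 98.1 CPM in e.v., 53.5 to 70.5 CPM in WT). In bulk RNA, fewer cells of a type and less RNA per cell cannot be told apart.

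The lines differed in 793 of 11998 tested genes (6.61%), with 499 higher in e.v. cells (4.16%) and 294 lower (2.45%), by edgeR's quasi-likelihood test with culture as an additive term and a Benjamini-Hochberg adjusted p under 0.05. At least 2-fold differences made up 227 of the higher and 93 of the lower genes. Of the 793 genes, 490 had no overlap between the libraries of the lines within either culture, against 675 of all tested genes (5.63%). The median log2 fold change over all tested genes was -0.02. The count of genes past the threshold depended on single libraries. Without e.v. monoculture library 11 it grew to 768 higher and 568 lower genes. It was smaller without e.v. coculture library 18 (246 and 126), e.v. monoculture library 25 (259 and 130), e.v. monoculture library 15 (284 and 154), e.v. coculture library 14 (256 and 161), WT monoculture library 16 (258 and 161), WT monoculture library 19 (313 and 186) and WT coculture library 28 (305 and 193). The higher count also dropped to 290 without WT coculture library 3, and the lower count to 172 without WT coculture library 20 and to 188 without e.v. coculture library 22.

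ANKRD55 separated the lines most completely. This gene (ENSG00000164512, chromosome 5, 56099678 to 56233359 in GRCh38) codes for an ankyrin repeat protein. It had 136, 149.9 and 124 CPM in e.v. monoculture and 169.8, 128 and 109 CPM in e.v. coculture, against 0, 0 and 0 CPM in WT monoculture and 0.204, 0 and 0.232 CPM in WT coculture. That is 3563 counts in the 6 e.v. libraries and 2 counts in the 6 WT libraries, a ratio of 1880 with a 95% counting interval of 520 to 15500 (adjusted p = 3.19e-12, edgeR). It was the only called gene with 3 or fewer counts in 1 of the lines. In 2D it had 64.9, 77.3 and 68.6 CPM in e.v. cells and 0.183, 0, 0.184 and 0 CPM in WT cells. The Caco-2-HIF1A-null libraries held 1, 2 and 1 counts of it in monoculture, coculture and 2D, 3 libraries each, so its transcript was near absent from both other lines.

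After ANKRD55, the leading genes among those higher in e.v. cells, ranked by adjusted p, included surface proteins, guidance and adhesion molecules. TFPI (chromosome 2), the inhibitor that blocks the start of coagulation by tissue factor, had 44.0 to 68.3 CPM in e.v. libraries (median 52.4) and 3.63 to 12.5 CPM in WT libraries (median 9.57), a log2 fold change of 2.56 ± 0.20 (SE, adjusted p = 1.92e-06). LYZ (chromosome 12), the antibacterial enzyme lysozyme, had 21.9 to 44.4 CPM in e.v. and 5.09 to 9.81 CPM in WT libraries (2.42 ± 0.18, adjusted p = 1.92e-06). For both genes the lowest e.v. library lay above the highest WT library. PCDH7, a protocadherin, averaged 25.9 ± 5.7 CPM in e.v. and 3.36 ± 1.14 CPM in WT cells (SD, n = 6 each here and below). ROBO1, a receptor for SLIT guidance cues, averaged 12.3 ± 4.2 CPM in e.v. and 1.17 ± 0.72 CPM in WT cells, and DPYSL3, a cytoskeletal protein of neurite growth, 72.1 ± 24.1 and 11.8 ± 2.9 CPM. The hyaluronan receptor CD44 averaged 37.5 ± 6.2 CPM in e.v. and 9.86 ± 4.11 CPM in WT cells, a log2 fold change of 1.92 ± 0.23. The matrix proteoglycan VCAN averaged 19.9 ± 4.6 and 5.30 ± 1.25 CPM (1.92 ± 0.20), and TGFBR3, a coreceptor for TGFβ, 59.5 ± 4.1 and 22.2 ± 4.1 CPM (1.43 ± 0.14). RYR2, a calcium release channel best known from heart muscle, averaged 7.67 ± 1.63 CPM in e.v. and 0.955 ± 0.653 CPM in WT cells. SLC2A2, the GLUT2 glucose transporter of enterocytes and hepatocytes, averaged 27.2 ± 10.9 and 3.54 ± 1.65 CPM, and HS3ST1, a heparan sulfate sulfotransferase, 9.67 ± 1.80 and 2.14 ± 0.84 CPM. Not all of these genes set e.v. cells apart from the Caco-2-HIF1A-null line. Its HoxBan libraries had 20.3 to 39.9 CPM of VCAN and 5.93 to 11.8 CPM of HS3ST1, above the WT range. For LYZ (6.39 to 13.9 CPM) and ROBO1 (0.694 to 3.20 CPM) they lay nearer the WT range. The remaining 3 of these 15 genes, IFI27, OAS1 and LGALS3BP, belong to the interferon response that follows. CHI3L1, a secreted chitinase-like glycoprotein that was singled out after its values were seen, had 29.0 to 269.6 CPM in e.v. and 2.04 to 13.3 CPM in WT libraries (4.28 ± 0.59, adjusted p = 0.000597).

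**Figure D1:**
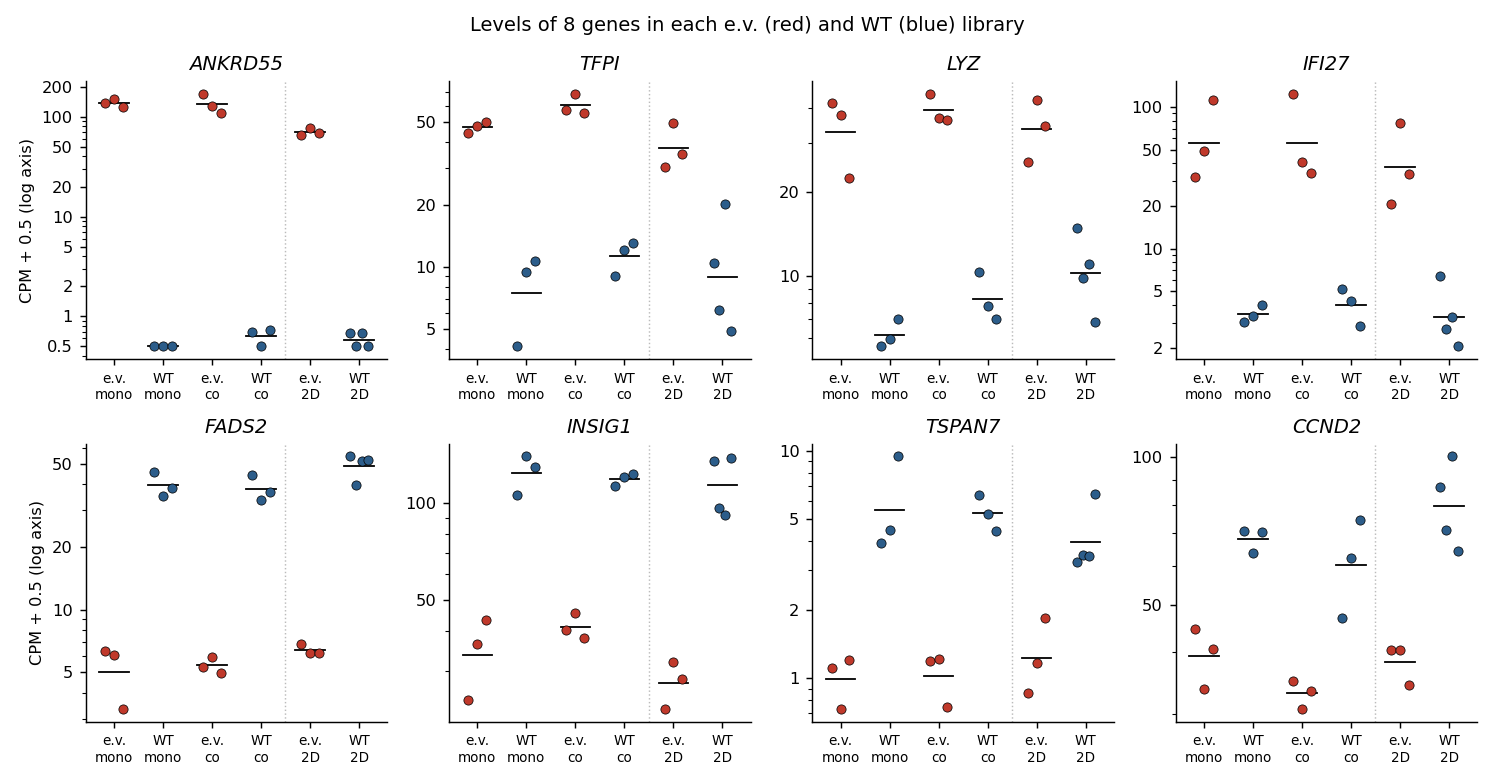
Each point is 1 library, as CPM plus 0.5 on a log axis, for e.v. (red) left of WT (blue) in HoxBan monoculture (mono), HoxBan coculture (co) and 2D, with lines at the mean of the log values. ANKRD55, TFPI, LYZ and IFI27 lie higher in every e.v. library than in every WT library, and FADS2, INSIG1, TSPAN7 and CCND2 lower, in HoxBan and in 2D.

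The 2 lower genes with the smallest adjusted p were FADS2 and INSIG1. FADS2 (ENSG00000134824, chromosome 11, 61792980 to 61867354), the delta-6 desaturase that starts the synthesis of long polyunsaturated fatty acids, had 5.86, 5.56 and 2.83 CPM in e.v. monoculture and 4.83, 5.46 and 4.46 CPM in e.v. coculture, against 45.2, 34.6 and 37.9 CPM in WT monoculture and 43.9, 33.2 and 36.4 CPM in WT coculture. The log2 fold change was -2.98 ± 0.18 (adjusted p = 8.93e-08), and no e.v. library came near the WT range. INSIG1 (ENSG00000186480, chromosome 7, 155297776 to 155310235), the membrane protein that holds SREBP transcription factors in the endoplasmic reticulum when sterols are plentiful, had 23.8, 35.9 and 42.7 CPM in e.v. monoculture and 39.8, 44.8 and 37.6 CPM in e.v. coculture, against 105.9, 139.6 and 129.5 CPM in WT monoculture and 113, 120.3 and 123 CPM in WT coculture (-1.70 ± 0.15, adjusted p = 5.93e-06). The Caco-2-HIF1A-null libraries in HoxBan lay lower still for INSIG1, at 0 to 2.32 CPM. For FADS2 they lay between the e.v. and WT ranges, at 7.21 to 14.6 CPM. In the list of cholesterol synthesis and its regulation, 2 of the 26 tested genes were higher in e.v. cells (7.69%, beside 4.16% of all genes) and 1, INSIG1 itself, was lower (3.85%, beside 2.45%), with a list median of 0.03 beside -0.02 over all genes. Both higher calls, STARD4 and MSMO1, were lost without single libraries (highest adjusted p = 0.0775 and 0.132).

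Other lower genes had a range of roles. TSPAN7, a tetraspanin on the X chromosome, had 0.232 to 0.712 CPM in e.v. and 3.45 to 8.96 CPM in WT libraries (-3.21 ± 0.37), and SPON1, a secreted matrix protein, averaged 30.6 ± 3.5 CPM in e.v. and 68.3 ± 5.9 CPM in WT cells. UPB1, the last enzyme of pyrimidine base breakdown, averaged 11.8 ± 2.7 and 31.5 ± 4.0 CPM. HHLA2, an immune checkpoint ligand of the B7 family, averaged 5.52 ± 1.95 CPM in e.v. and 16.6 ± 4.0 CPM in WT cells. Cyclin D2 (CCND2) averaged 35.8 ± 5.3 and 64.2 ± 9.8 CPM, and CRABP1, a carrier of retinoic acid, 28.0 ± 3.9 and 59.4 ± 16.5 CPM. The zinc finger gene ZNF655 averaged 8.46 ± 1.10 CPM in e.v. and 18.4 ± 3.9 CPM in WT cells, and the nucleotide sugar transporter gene SLC35B4 7.94 ± 1.77 and 18.2 ± 4.0 CPM, both on chromosome 7 like INSIG1. The transcriptional cofactor LMO4 (-0.79 ± 0.11), the secreted protein OAF (-1.12 ± 0.16), the basement membrane protein FRAS1 (-0.82 ± 0.13), the dynein adaptor BICD1 (-0.90 ± 0.14) and the fibrinogen chain FGB (-1.29 ± 0.20) completed the 15 lower genes named by rank. SLC22A3, an organic cation transporter singled out after its values were seen, had 0 to 0.463 CPM in e.v. and 1.45 to 5.42 CPM in WT libraries, 4 counts against 79. The Caco-2-HIF1A-null libraries in HoxBan were also below the WT range for SLC22A3 (0 to 0.375 CPM), UPB1 (3.73 to 7.74 CPM) and HHLA2 (1.86 to 7.74 CPM). For TSPAN7 (1.55 to 5.97 CPM) and CRABP1 (38.1 to 97.5 CPM) they lay above the e.v. range. All 30 genes named as higher or lower by rank kept their calls under every alternative run. Their choice by smallest adjusted p and no overlap in these same libraries favours this.

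Interferon-stimulated genes were higher in e.v. cells. Of 46 genes in the list, 33 passed the filter, and 22 of these were higher and none lower, 66.7% beside 4.16% of all tested genes. Their median log2 fold change was 1.33, beside -0.02 over all genes. The count was 17 to 27 when single libraries were left out. The filter keeps a gene with enough counts in as few libraries as 1 group holds. Members low in WT cells could thus enter through their e.v. levels alone, such as IFIT1 with 0.232 to 2.04 CPM in WT libraries. The percentage, the median and the list level given below all rest on these 33 genes. Of them 25 were tested in 2D, with 17 higher and none lower there. The RefSeq promoters of the 4 leading list members are shown from 250 bases before to 50 bases after the annotated start (GRCh38.p14). They differ in how many copies they hold of a fixed form of the core of the interferon-stimulated response element. Capitals mark each match, on either strand, to GAAA followed by any 2 bases and a further GAAA. Repeats of GAAA at another spacing, such as gaaacgaaa in the OAS1 window, are not counted, so 0 matches does not show that the element is absent.
IFI27: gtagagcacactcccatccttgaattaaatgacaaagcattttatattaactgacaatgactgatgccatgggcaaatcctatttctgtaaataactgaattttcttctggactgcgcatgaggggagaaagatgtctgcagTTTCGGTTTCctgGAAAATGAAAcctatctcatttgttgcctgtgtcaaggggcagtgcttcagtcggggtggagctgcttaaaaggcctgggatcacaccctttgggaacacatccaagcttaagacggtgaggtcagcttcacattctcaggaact
IFI6: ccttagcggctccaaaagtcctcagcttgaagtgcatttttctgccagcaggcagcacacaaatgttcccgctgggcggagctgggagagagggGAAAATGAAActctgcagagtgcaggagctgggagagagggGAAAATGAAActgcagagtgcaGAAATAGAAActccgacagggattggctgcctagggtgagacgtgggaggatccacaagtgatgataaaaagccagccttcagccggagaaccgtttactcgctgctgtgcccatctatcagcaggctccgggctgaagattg
LGALS3BP: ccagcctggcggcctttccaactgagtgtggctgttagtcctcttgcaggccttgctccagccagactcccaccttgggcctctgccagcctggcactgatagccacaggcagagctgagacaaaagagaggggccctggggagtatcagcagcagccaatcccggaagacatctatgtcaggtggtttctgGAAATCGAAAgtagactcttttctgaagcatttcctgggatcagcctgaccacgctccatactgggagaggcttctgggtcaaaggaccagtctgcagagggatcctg
OAS1: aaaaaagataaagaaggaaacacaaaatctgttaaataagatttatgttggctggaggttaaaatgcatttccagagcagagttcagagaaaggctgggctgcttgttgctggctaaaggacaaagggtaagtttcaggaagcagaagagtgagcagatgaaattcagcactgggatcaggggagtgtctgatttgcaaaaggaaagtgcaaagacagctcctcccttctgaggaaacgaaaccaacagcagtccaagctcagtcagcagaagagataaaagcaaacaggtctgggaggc
They lie at chr14:94110486-94110785 (plus strand), chr1:27672143-27672442 (minus), chr17:78979874-78980173 (minus) and chr12:112906712-112907011 (plus), with 2, 3, 1 and 0 matches. Across 27305 RefSeq promoters of this length, 3.65% held a match. Of the genes higher in e.v. cells, 398 had a promoter in the table and 6.28% held a match, beside 1.78% of 225 lower genes and 2.42% of 8714 genes without a call. Split by the list, a match was in 14 of 20 higher interferon-stimulated genes and in 11 of 378 other higher genes (2.91%). Of list members that did not pass the test, 6 of 9 held it. A match is a description of the letters in this window and not a bound site.

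IFI27, a mitochondrial protein that is among the most strongly interferon-induced transcripts, had 31.7 to 123.5 CPM in e.v. libraries (median 44.3) and 2.32 to 4.70 CPM in WT libraries (median 3.14), a log2 fold change of 4.30 ± 0.39 (adjusted p = 1.27e-05). IFI6, an antiviral membrane protein, had 44.5 to 361.4 CPM in e.v. and 4.17 to 14.6 CPM in WT libraries (4.19 ± 0.50, adjusted p = 0.000201). OAS1, which makes the 2-5A signal that activates RNase L, had 26.5 to 64.9 CPM in e.v. and 5.42 to 11.0 CPM in WT libraries (2.27 ± 0.24). For each of these genes all e.v. libraries lay above all WT libraries. LGALS3BP, a secreted glycoprotein, averaged 69.5 ± 10.3 and 30.2 ± 4.7 CPM (1.21 ± 0.14). Of further members, looked up after their values were seen, MX1, a dynamin-like GTPase that blocks influenza virus, averaged 44.8 ± 33.5 CPM in e.v. and 2.20 ± 1.32 CPM in WT cells, and the ubiquitin-like modifier ISG15 56.7 ± 38.9 and 11.2 ± 2.9 CPM. IFIT1, which binds foreign RNA ends, averaged 8.07 ± 5.79 and 0.828 ± 0.760 CPM. IFITM3, which keeps viruses from fusing with endosomes, averaged 120.1 ± 77.9 and 30.9 ± 7.1 CPM, and reads of its near-identical neighbours IFITM1 and IFITM2 may be split between them. The phospholipid scramblase PLSCR1 averaged 125 ± 43 and 57.6 ± 6.3 CPM. The Caco-2-HIF1A-null libraries in HoxBan had 0 to 0.249 CPM of MX1, 12.9 to 23.4 CPM of ISG15 and 3.35 to 14.7 CPM of IFI27.

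**Figure D2:**
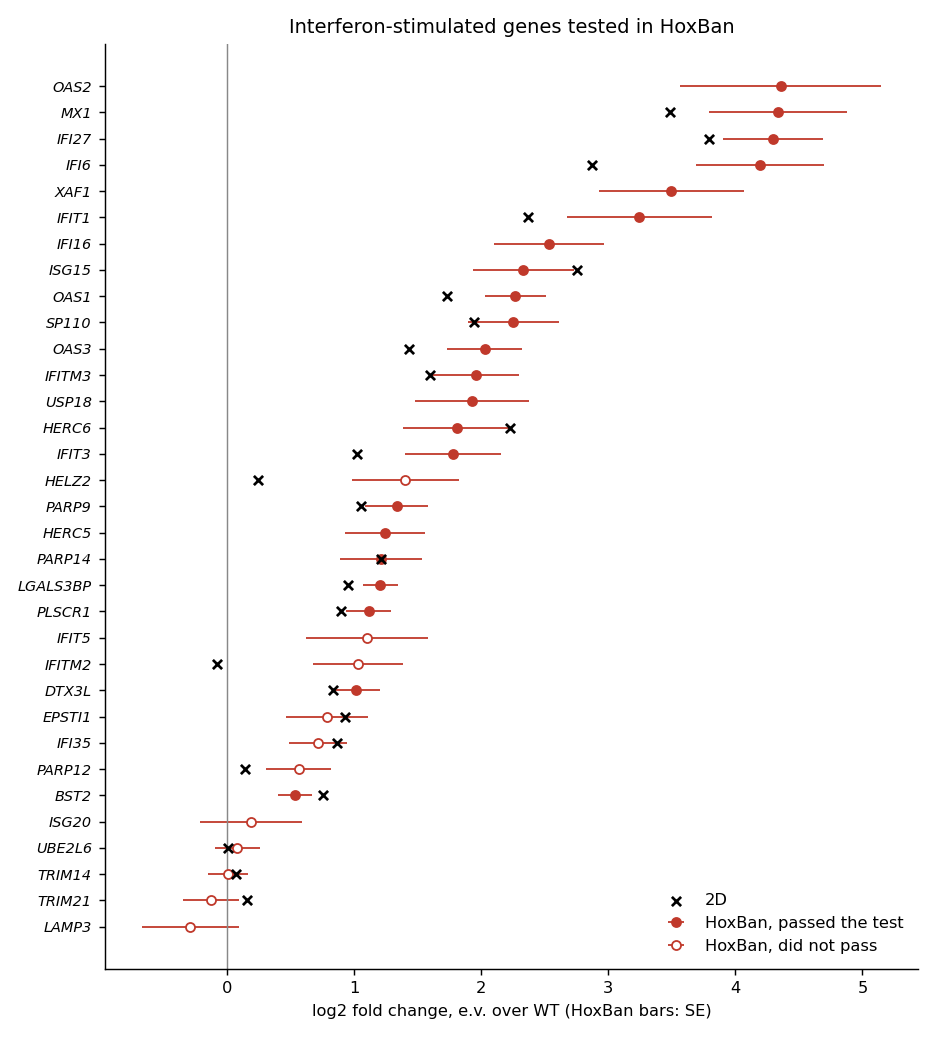
Log2 fold change of e.v. over WT for the 33 tested interferon-stimulated genes in HoxBan (circles, bars show the SE, filled where the adjusted p was under 0.05), with the value in the separate 2D libraries as crosses where tested. The 22 filled circles all lie above 0.

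The interferon level varied among the e.v. libraries themselves. A list level, the median over the 33 tested members of the log2 CPM (plus 0.5) centred on the mean of the 4 groups, was 0.13 to 1.48 in e.v. libraries and -0.82 to -0.43 in WT libraries, without overlap. Within the e.v. line the level went with the mitochondrial share of the library. Libraries 11 and 22, with 8.52 and 10.5% mitochondrial counts, had levels of 0.20 and 0.13, libraries 15 and 18, with 13.8 and 14.9%, had 0.48 and 0.57, and libraries 25 and 14, with 23.3 and 19.6%, had 1.25 and 1.48. The WT libraries covered 6.36 to 20.4% with no such order. With the mitochondrial share as a covariate 23 list members were higher in e.v. cells. The Caco-2-HIF1A-null libraries in HoxBan lay at -0.66 to -0.19.

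**Figure D3:**
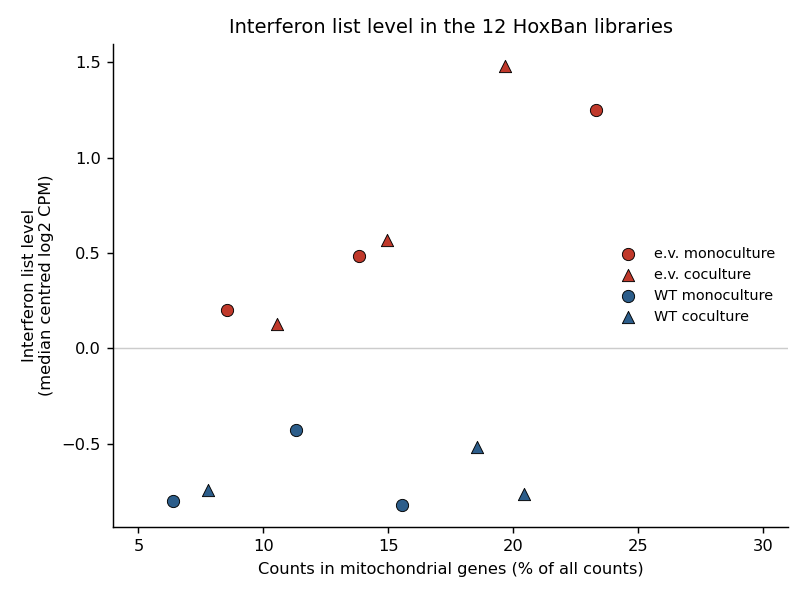
Level of the interferon list (median centred log2 CPM over 33 genes) against the percentage of counts in mitochondrial genes, 1 point per HoxBan library, e.v. in red and WT in blue, circles for monoculture and triangles for coculture. All 6 e.v. libraries lie above 0 and all 6 WT libraries below, and the e.v. points with the highest mitochondrial share have the highest levels.

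Of the genes that sense nucleic acids and pass on the interferon signal, 4 of 23 tested were higher (17.4%, beside 4.16% of all genes) and none lower (median 0.27). IFIH1, which codes for the RNA sensor MDA5, had 9.69 to 24.0 CPM in e.v. and 2.12 to 8.31 CPM in WT libraries (2.04 ± 0.27, adjusted p = 0.00038). RIGI, the RIG-I sensor gene, averaged 14.2 ± 6.0 and 5.11 ± 2.67 CPM and EIF2AK2, the kinase PKR that is activated by double-stranded RNA, 240.2 ± 57.7 and 160.3 ± 24.6 CPM. RIGI lost its call without library 14, 18 or 25 (highest adjusted p = 0.0564) and EIF2AK2 without any 1 of 7 libraries (highest adjusted p = 0.0771), and the list count fell to 2 without e.v. coculture library 14 or 18. Of 16 tested genes of MHC class I presentation 3 were higher (18.8%, beside 4.16%), PSMB9, TAP1 and TAP2. Only PSMB9, a subunit of the immunoproteasome, kept its call without each library (4.41 ± 1.97 CPM in e.v., 1.56 ± 0.61 CPM in WT), while the highest adjusted p was 0.0897 for TAP1 and 0.0744 for TAP2. In 2D the list had no call among 15 (median 0.02, 8 above 0), and PSMB9 was too low there to be tested. Among NF-κB targets and chemokines 5 of 17 were higher (29.4%, beside 4.16%) and none lower (median 0.68, in 2D 0.00 with no call among 11), but 1 to 3 were higher without any 1 library other than e.v. monoculture library 11. BIRC3, an inhibitor of apoptosis induced by NF-κB, averaged 75.7 ± 26.6 and 28.6 ± 13.8 CPM (1.40 ± 0.25) and was the member with the smallest p.

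IL18, the cytokine gene that the study follows, had 31.9, 22.0 and 17.9 CPM in e.v. monoculture and 30.6, 31.1 and 34.2 CPM in e.v. coculture, against 8.72, 6.12 and 12.6 CPM in WT monoculture and 17.4, 9.82 and 8.34 CPM in WT coculture. The lines did not overlap (log2 fold change 1.41 ± 0.21, adjusted p = 0.00124), and no alternative ended the call. By edgeR it did not pass within monoculture (1.39, adjusted p = 0.0905) or within coculture (1.43, adjusted p = 0.0639) alone. Nor did it pass in 2D (0.95, adjusted p = 0.0607). The Caco-2-HIF1A-null libraries had 11.8 to 14.15 CPM of IL18 in monoculture and 9.05 to 15.0 CPM in coculture. In HoxBan none of the other 7 tested genes of the inflammasome, IL-18 and gasdermin list passed the test. HIF1A itself averaged 268 ± 59 CPM in e.v. and 184 ± 22 CPM in WT cells (0.54 ± 0.15, adjusted p = 0.0368), a call that was lost without any 1 of 9 libraries (highest adjusted p = 0.0921). EPAS1, the gene of HIF2α, had 40.8 to 63.0 and 29.2 to 57.0 CPM and did not pass (adjusted p = 0.214). EGLN3, with 36 counts in e.v. and 46 in WT libraries, was too low to be tested.

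The targets of HIF1α differed in both directions. Outside glycolysis 6 of 36 tested targets were higher (16.7%, beside 4.16% of all genes) and 1 lower (2.78%, beside 2.45%), with a median of 0.13 and 20 of 36 above 0. In 2D the median of the list was -0.55, with 5 of 35 above 0 and no call. The HoxBan count was 12 higher without e.v. monoculture library 11 and 3 without e.v. monoculture library 25. RORA, a nuclear receptor, averaged 11.4 ± 4.6 CPM in e.v. and 2.69 ± 2.05 CPM in WT cells (2.12 ± 0.40), BHLHE40, a hypoxia-induced repressor, 47.0 ± 16.3 and 20.3 ± 4.7 CPM (1.22 ± 0.23), and PFKFB3, which drives glycolysis through fructose 2,6-bisphosphate, 23.1 ± 6.2 and 12.7 ± 2.5 CPM (0.86 ± 0.18). ANKRD37, a short ankyrin repeat protein, had 10.5, 88.5 and 139.7 CPM in e.v. monoculture, 82.8, 83.5 and 76.0 CPM in e.v. coculture, 7.09, 29.9 and 27.3 CPM in WT monoculture and 29.0, 18.6 and 20.6 CPM in WT coculture. Its call (1.87 ± 0.43, adjusted p = 0.019) was lost without e.v. library 25 (adjusted p = 0.0558), and e.v. library 11 lay within the WT range. In 2D the sign was the other way for ANKRD37 (-2.38), BHLHE40 (-1.31) and PFKFB3 (-1.16), none past the test there, and the difference between HoxBan and 2D did not pass after adjustment for any gene. Glycolysis and glucose uptake had 2 higher and 2 lower of 22 (9.09% each, beside 4.16 and 2.45% of all genes), with a median of -0.36 and 4 of 22 above 0. In 2D 3 of these 22 were lower and none higher, with a median of -0.50 and 1 of 22 above 0. In HoxBan TPI1, triosephosphate isomerase, averaged 400.3 ± 49.6 CPM in e.v. and 726 ± 206 CPM in WT cells (-0.85 ± 0.17, adjusted p = 0.00881), and HK1, a hexokinase, 15.9 ± 6.4 and 6.35 ± 2.22 CPM (1.35 ± 0.29). PGK1 had 368 to 524 CPM in e.v. and 397 to 1021 CPM in WT libraries and did not pass (-0.51 ± 0.21, adjusted p = 0.167). The calls of SLC2A3 (0.62, higher) and PFKM (-0.42, lower) were lost without any 1 of 8 and 10 libraries (highest adjusted p = 0.0886 and 0.106).

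Of 21 tested genes of the brush border and digestion 4 were lower (19.0%, beside 2.45% of all genes) and 1 higher (4.76%, beside 4.16%), and 3 of 21 had a positive log2 fold change (median -0.60). Sucrase-isomaltase (SI) averaged 5.47 ± 1.84 CPM in e.v. and 13.6 ± 4.6 CPM in WT cells (-1.30 ± 0.26) and the chloride bicarbonate exchanger SLC26A3 3.22 ± 1.38 and 11.0 ± 5.3 CPM (-1.76 ± 0.37). Lactase (LCT, -1.73, adjusted p = 0.0467) was also lower, and SLC2A2 was the higher member. The lower count was 7 without WT monoculture library 29. In the list of apolipoproteins and lipid assembly APOA2, a protein of high-density lipoprotein, averaged 1540.3 ± 176.0 and 674 ± 172 CPM (1.20 ± 0.15, adjusted p = 0.000333) and was the single higher gene of 17 (5.88%, beside 4.16%), while NPC1L1, ABCA1 and MOGAT3 were lower (17.6%, beside 2.45%) with calls that single libraries ended (highest adjusted p = 0.0691, 0.0823 and 0.109). ACAA2, the last enzyme of mitochondrial fatty acid oxidation, averaged 259 ± 36 and 157 ± 21 CPM (0.72 ± 0.12).

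Among mucosal defence proteins LYZ and the antibacterial phospholipase PLA2G2A (160.4 ± 52.2 CPM in e.v., 72.7 ± 24.2 CPM in WT) were higher, and the trefoil peptide TFF2 (3.62 ± 2.47 and 17.7 ± 10.5 CPM, -2.27 ± 0.51) was lower, as was the lectin REG4, whose call was lost without any 1 of 6 libraries (highest adjusted p = 0.108). Of 21 tested coagulation genes, which Caco-2 cells share with liver, 4 were higher and 4 lower (19.0% each, beside 4.16 and 2.45% of all genes). Beside TFPI and FGB, coagulation factor X (F10) averaged 11.7 ± 2.3 CPM in e.v. and 25.5 ± 5.1 CPM in WT cells (-1.11 ± 0.18, adjusted p = 0.00195). Leaving out libraries changed these counts, and 1 or 2 genes of the list were higher without any 1 library other than WT library 16 or e.v. library 22 (3 each). The lower count was 2 without library 3, 14, 16, 18, 19, 25 or 28.

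In extracellular matrix and adhesion 6 of 31 tested genes were higher (19.4%, beside 4.16% of all genes) and none lower (median 0.17), with 4 or 5 higher without any 1 library. Beside CD44 and VCAN, fibronectin (FN1) averaged 3717 ± 385 CPM in e.v. and 2235 ± 153 CPM in WT cells (0.74 ± 0.11, adjusted p = 0.00138) and the laminin chain LAMC1 448 ± 107 and 263 ± 66 CPM (0.77 ± 0.17). Of the fibroblast markers, the collagen gene COL3A1 averaged 7.70 ± 2.83 and 2.39 ± 1.38 CPM and the growth factor receptor PDGFRA 35.5 ± 10.5 and 17.9 ± 5.0 CPM, with 3 of that list of 12 at 0 counts. Their part in the matrix result was not tested. In the EGF family the ligand epiregulin (EREG) averaged 582 ± 66 and 323 ± 71 CPM (0.85 ± 0.15, adjusted p = 0.00303). The list held 4 higher (40.0%, beside 4.16% of all genes) and 1 lower (10.0%, beside 2.45%) of 10. Only 1 or 2 were higher without library 3, 14, 15, 16, 18, 19, 25 or 28. The lower member was the receptor EGFR (26.3 ± 2.5 and 43.2 ± 12.6 CPM), whose call was lost without library 15, 18, 19, 25 or 28 (highest adjusted p = 0.0534). In the Wnt list 3 of 19 were higher (15.8%, beside 4.16% of all genes) and 1 was lower (5.26%, beside 2.45%). Among the higher genes was NKD1, a feedback inhibitor of the pathway (21.9 ± 11.9 and 8.20 ± 2.85 CPM, 1.44 ± 0.31). The count of higher Wnt genes was 1 without e.v. library 14 or 25 or WT library 19.

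Proliferation genes had 6 of 32 members lower (18.8%, beside 2.45% of all genes) and none higher (median -0.15). In 2D their median was -0.04, with 14 of 32 above 0 and no call. In HoxBan UBE2C, which helps degrade mitotic cyclins, averaged 265 ± 31 CPM in e.v. and 374 ± 23 CPM in WT cells (-0.49 ± 0.11). It kept its call without each library, but the count of lower genes was 1 to 3 without e.v. library 15, 18 or 25 or WT library 16, 20 or 29. The cell cycle inhibitors moved in opposite directions, with CDKN2B, the p15 inhibitor, at 7.96 ± 3.63 and 2.50 ± 0.83 CPM (1.67 ± 0.33) and CDKN1B, the p27 inhibitor, at 43.8 ± 8.5 and 68.6 ± 6.8 CPM (-0.64 ± 0.13). The list of p53 targets and cell cycle inhibitors had 6 higher (23.1%, beside 4.16%) and 1 lower (3.85%, beside 2.45%) of 26, with a median of 0.25 in HoxBan and -0.12 with no call in 2D, and 2 or 3 higher without e.v. library 14, 18 or 25 or WT library 16. In the list of the integrated stress and unfolded protein response 4 of 22 were higher (18.2%, beside 4.16%) and none lower, with a median of 0.27 and 18 of 22 above 0. In 2D its median was -0.135, with 6 of 22 above 0 and no call. In HoxBan HERPUD1, a stress protein of the endoplasmic reticulum, was at 129.5 ± 43.1 and 60.0 ± 10.1 CPM (1.12 ± 0.21) and the glutathione-degrading enzyme CHAC1 at 12.9 ± 4.4 and 5.59 ± 2.37 CPM (1.23 ± 0.25). The HoxBan count was 7 without e.v. library 11 and 2 without e.v. library 15, 18 or 25. The list of immediate early genes had 2 higher (11.1%, beside 4.16%) and 1 lower (5.56%, beside 2.45%) of 18, with a median of 0.51. In 2D its median was -0.35, with 3 of 16 above 0 and no call. In HoxBan JUN averaged 118 ± 27 and 54.6 ± 15.8 CPM (1.12 ± 0.20), and DUSP6, a phosphatase that restrains ERK, 115 ± 35 and 223 ± 36 CPM (-0.96 ± 0.18). No gene passed among 36 nuclear respiratory chain genes and 6 metallothioneins. The former had a median of -0.12 in HoxBan and -0.135 in 2D, with 3 and 9 of 36 above 0. The latter had 0.33 and -0.05, with 6 and 3 of 6 above 0. Junctions and keratins had 1 higher (3.85%) and 2 lower (7.69%) of 26, among them the tight junction protein CLDN15 (-1.46). There was 1 higher of 24 NRF2 targets (4.17%) and 1 lower of 21 genes of drug handling (4.76%). Imprinted genes had 1 higher of 10 (10.0%) and mitochondrially encoded genes 2 higher of 15 (13.3%), all beside 4.16% higher and 2.45% lower over all genes. Of 29 cancer-germline genes 1 was high enough to be tested, 22 had no count in these libraries, and that 1 gene did not pass.

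Fewer genes passed within single cultures. In monoculture 33 genes were higher (0.275%) and 7 lower (0.0583%), together 0.333% of 11998, and in coculture 40 (0.333%) and 7 (0.0583%), together 0.392%. The monoculture count of higher genes was 92 without e.v. library 11 and 9 to 15 without library 15, 16, 18, 19, 25 or 29, and the coculture count was 65 without library 11 and 10 to 26 without library 3, 14, 15, 18, 20 or 28. All 793 genes called over both cultures had the same sign in each, which the additive fit itself favours. The difference between coculture and monoculture was past the threshold in no gene by edgeR (48 at an unadjusted p under 0.05) and in none by DESeq2. Values within each culture are given for a few leading genes. IFI27 had log2 fold changes of 4.43 in monoculture and 4.17 in coculture, INSIG1 -1.87 and -1.54, and TFPI 2.65 and 2.47.

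The 2D libraries, which the HoxBan comparison did not use, gave the same signs for most of these genes. In 2D 130 genes were higher (1.08%) and 71 lower (0.592%) in e.v. cells, together 1.67% of 12001. Of the 793 genes called in HoxBan 752 were tested in 2D, 677 of them (90.0%) had the same sign, and 134 passed there, all with the same sign. Among 10801 genes without a call in HoxBan the share with the same sign was 64.8%. Seen from 2D, 134 of the 194 genes that passed in 2D and were tested in HoxBan passed in HoxBan (69.1%). The median log2 fold change of the higher genes was 0.86 in HoxBan and 0.46 in 2D (468 genes), and that of the lower genes -0.77 in HoxBan and -0.39 in 2D (284 genes). These genes were chosen by their HoxBan values alone. Across all 11553 genes tested in both systems Pearson's r of the log2 fold changes was 0.64, a description across genes that share libraries and depth. FADS2 (-3.06), INSIG1 (-2.09), TFPI (1.93), LYZ (1.73) and IFI27 (3.79) passed in 2D as well, while TGFBR3 (0.93, adjusted p = 0.119), VCAN (1.05, adjusted p = 0.264), LMO4 (-0.26, adjusted p = 0.353) and FRAS1 (0.00, adjusted p = 0.997) did not. The difference of the contrast between HoxBan and 2D passed in no gene by edgeR (642 of 12545 at an unadjusted p under 0.05) and in 8 by DESeq2. The 2D counts were 30 to 76 higher and 9 to 43 lower genes without e.v. library 23, 26 or 32 or WT library 27, and 108 were lower without WT library 8.

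**Figure D4:**
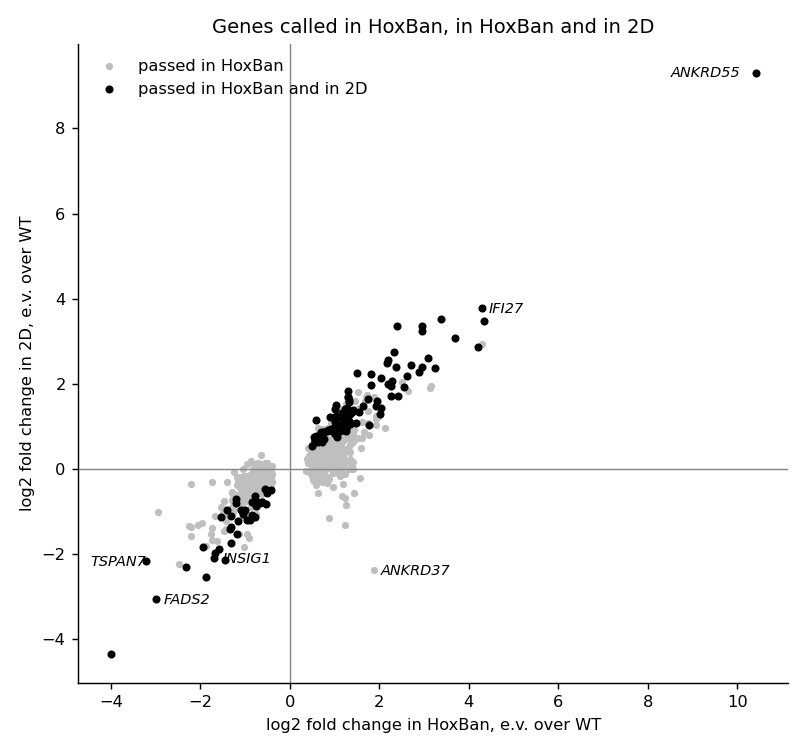
Log2 fold change of e.v. over WT in HoxBan (horizontal) and in the separate 2D libraries (vertical) for the 752 genes called in HoxBan and tested in 2D, black where the gene passed in both. All 134 black points lie in the quadrants of equal sign, and ANKRD37 is a gene of opposite sign.

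Differences between the lines lay together on some chromosomes. Chromosome 7 held 68 of the 294 lower genes (23.1%) but 565 of the 11998 tested genes (4.71%), and 10 of the higher genes. Its median log2 fold change was -0.26 in HoxBan, with 77.7% of its genes below 0, and -0.25 in 2D, with 82.1% below 0. The shift was also alike within monoculture (-0.25) and coculture (-0.27). A per-library level, the median of the centred log2 CPM over the chromosome 7 genes less that over all genes, was -0.15 to -0.09 in the 6 e.v. libraries and 0.10 to 0.13 in the 6 WT libraries, and -0.13 to -0.09 in 3 e.v. and 0.12 to 0.135 in 4 WT libraries in 2D. The lines did not overlap in either system, and the Caco-2-HIF1A-null libraries in HoxBan lay between them at -0.05 to 0.05. The 12 windows of 10 Mb on it that held at least 20 tested genes all had a median below 0 in HoxBan and in 2D, from -0.36 to -0.13 in HoxBan. Stretches with fewer tested genes were not examined. Of the 67 lower chromosome 7 genes tested in 2D, 63 were below 0 there.

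Over all tested genes 2.45% were lower and 4.16% higher, which stand beside the counts that follow. Chromosome 13 had 18 lower (8.33%) and no higher genes of 216 (median -0.22 in HoxBan, -0.19 in 2D), and all 18 were below 0 in 2D. Its per-library level was -0.18 to -0.04 in e.v. and 0.03 to 0.18 in WT libraries. The Caco-2-HIF1A-null libraries in HoxBan lay at 0.13 to 0.27. Chromosome 15 had 26 lower (6.68%) and 5 higher (1.29%) genes of 389 (median -0.14 in HoxBan, -0.105 in 2D). The remaining nuclear chromosomes had medians of -0.10 to 0.08 in HoxBan. Of 231 windows genome-wide, the 15 with the lowest median were all below 0 in 2D, 8 of them on chromosome 7, 3 on chromosome 13 and 2 on chromosome 12, and across windows Pearson's r between HoxBan and 2D was 0.85. The lowest window lay on chromosome 13 between 110000001 and 120000000, which holds F10, with 5 of 25 genes lower (median -0.43 in HoxBan, -0.32 in 2D). On chromosome 12 the window from 1 to 10000000, which holds CCND2 and TPI1, had 9 lower and 3 higher of 81 genes (median -0.29 in HoxBan, -0.28 in 2D), and that from 30000001 to 40000000, which holds BICD1, 5 lower of 27 (median -0.37 and -0.17). The mitochondrial genome had 4 of 24 genes higher in HoxBan (16.7%) with a median of 0.56 there, and -0.12 with no call in 2D. DNA copy number was not measured in these files.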

How the data were processed

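The deposited table holds raw read counts per Ensembl gene, which the authors made from QuantSeq 3′ mRNA libraries on GRCh38 (build from the submitters' processing notes). Which aligner, annotation and counter with what strandedness produced them is not given in the sources used here. Overlapping genes, or those with near-identical ends, may share reads. Of 60107 rows 30677 held a count, 56104 were named from an identifier table and 427 from GENCODE release 29 (GRCh38), and 0.0679% of counts lay in rows without a name. Counting intervals cover counting error only, as reads without molecular identifiers are not independent molecules.

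Computed here from the deposited counts were TMM factors, edgeR's filter over the 4 groups (11998 genes kept) and the quasi-likelihood test, two-sided, for genotype with culture as an additive term over 12 libraries (9 residual degrees of freedom). Within-culture contrasts and their difference came from 1 mean per group, and 2D from its own 7 libraries. p-values were adjusted by Benjamini-Hochberg over all tested genes, with a threshold of 0.05. CPM used TMM over all 32 libraries. Named genes were the 15 higher and 15 lower with the smallest adjusted p among called genes with a mean of at least 5 CPM in 1 line and no overlap within either culture, up to 4 members of each of 33 lists, and HIF1A, EPAS1, IL18, PGK1 and EGLN3. MX1, ISG15, IFIT1, IFITM3, PLSCR1, CHI3L1, SLC22A3 and LCT were added after their values were seen. The comparison and the lists were chosen with earlier results of these data known. Of 812 list genes 811 were matched. Lists were described by counts and medians, with no set test. Some list members are counted but not reported by name here. Alternatives were DESeq2, RLE and upper-quartile factors, no filter, a mean of at least 1 CPM, a fit of 28 libraries, no culture term, the mitochondrial share as a covariate, mitochondrial genes left out, a robust dispersion, and each library left out in turn. The steps were tested on simulated counts. Sequences are from RefSeq (GRCh38.p14). Fits ran in R 4.3.3 with edgeR 4.0.16, DESeq2 1.42.0 and limma 3.58.1. Tables and figures were made in Python 3.11.15 with matplotlib 3.10.9, scipy 1.17.1, pandas 2.3.3 and numpy 2.4.6.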

Additional observations from a re-analysis of the deposited data

Results flagged for a closer look

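Within a line, 1 library stood apart from the others of its group in 7 of 125 groups of values examined, where chance gives about 1 in 20. LYZ had 21.9 CPM in e.v. monoculture library 25, against 35.6 to 44.4 CPM in the other e.v. libraries in HoxBan. INSIG1 had 23.8 CPM in e.v. monoculture library 11, against 35.9 to 44.8 CPM in the others. UPB1 had 17.3 CPM in e.v. coculture library 18, against 10.5 to 10.9 CPM in the others. TFPI had 3.63 CPM in WT monoculture library 16, against 8.58 to 12.5 CPM in the other WT libraries in HoxBan. All 4 genes kept their calls without that library. In 2D, FADS2 had 39.1 CPM in WT library 8, against 51.2 to 53.9 CPM in the other WT libraries, and TSPAN7 5.96 CPM in WT library 27, against 2.75 to 3.00 CPM. The mitochondrial share was 14.1% in WT library 12 in 2D, against 4.94 to 6.30% in the others. The 3 e.v. libraries in 2D were too few for this rule and were not examined. Among them library 26 had a mitochondrial share of 17.1%, against 5.79 and 5.58% in libraries 23 and 32. It also had more IFI27 (76.3 CPM, against 20.1 and 32.9) and IFI6 (149 CPM, against 27.4 and 68.5). For MX1 it was near library 23 (24.0 and 23.0 CPM), with 9.35 CPM in library 32.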

How the results depend on the processing

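No paired analysis was possible because each library carries its own number and no number is shared between the groups compared. Of 112 named genes followed, 72 kept their call under all 10 alternatives and all 12 libraries left out, and none of 2462 values reversed, with 279 weaker and 1 stronger (PGK1 with no filter on low counts). The 30 genes named by rank all kept their calls, which their choice by smallest adjusted p in the same libraries favours. Without a filter on low counts, more genes passed, 850 higher and 488 lower over both cultures, 227 and 79 in monoculture, 271 and 119 in coculture, 423 and 413 in 2D, 0 and 2 for coculture against monoculture, and 55 and 5 for HoxBan against 2D, and the chromosome 13 shift relative to all genes was -0.0692 (-0.20 with the filter). A fit of 28 libraries gave 782 higher and 629 lower genes, and the mitochondrial share as a covariate 571 lower. DESeq2 gave 94 and 32 in monoculture, 114 and 35 in coculture, 240 and 211 in 2D and 8 higher for HoxBan against 2D. The cause of these changes was not tested. Leaving out single libraries gave 246 to 768 higher and 126 to 568 lower genes over both cultures, 9 to 92 and 3 to 17 in monoculture, 10 to 65 and 3 to 18 in coculture, 30 to 136 and 9 to 108 in 2D, and 0 to 4 higher genes for HoxBan against 2D. The chromosome 7 shift relative to all genes was -0.25 to -0.23 and that of chromosome 13 -0.22 to -0.17 when single libraries were left out. A gene not called within a single culture is not shown to be alike in both lines.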
